A study of Mus musculus with 24 samples.

Results

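The response to all-trans retinoic acid (ATRA) was compared between embryoid bodies with a knockdown of Prmt1 and embryoid bodies with a scrambled control sequence. The cells were D3 mouse embryonic stem cells, an established line, that carried either the scrambled sequence (siSCR) or the knockdown of the arginine methyltransferase gene Prmt1 (siPRMT1). They were aggregated without the cytokine LIF into embryoid bodies, which were given the vehicle DMSO or ATRA (5 micromol) for 12 h within a span of 4 days. Each of the 4 combinations had 3 arrays, so the comparison used 12 of the 24 arrays of the study, chosen by their labels alone. The other 12 were undifferentiated cells and untreated day 4 embryoid bodies of both kinds of cells. The labels call the 3 arrays of a group biological replicates without saying which steps were separate. The p-values measure the spread between arrays of a group, pooled for each gene over all 24 arrays, the other 12 included. The sources used here do not give the number of clones, or say if the knockdown was a lasting one. For each of 19938 genes the interaction was computed, which is the ATRA response in siPRMT1 (log2, ATRA over DMSO) minus the same response in siSCR.

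Retinoic acid enters the nucleus and binds retinoic acid receptors (RARs), which sit on DNA as partners of retinoid X receptors (RXRs) and exchange corepressors for coactivators once the ligand is bound. Its direct targets include the 3′ members of the Hox clusters, the receptor gene Rarb and genes that store or break down retinoids, and in embryoid bodies it drives cells away from the epiblast state. PRMT1 deposits asymmetric dimethylarginine on histone H4 and on many other proteins, and arginine methyltransferases act as cofactors of nuclear receptors.

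A set of target genes of retinoic acid rose much further in siPRMT1 than in siSCR. Hoxb1, Hoxb2 and Hoxb5, transcription factors that pattern the hindbrain and neck region, rose 1.48-fold, 1.48-fold and 1.83-fold in siSCR and 5.67-fold, 7.77-fold and 6.93-fold in siPRMT1. A second set fell in siPRMT1 from a raised starting level. Cer1, a secreted antagonist of Nodal, BMP and Wnt signals, dropped to 0.16 of its DMSO level in siPRMT1 and stayed at 0.998 of it in siSCR. The strongest retinoid target of both kinds of cells, Stra8, a gene of meiotic entry, rose 16.8-fold in siSCR and 18.2-fold in siPRMT1, with no interaction called.

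Prmt1 itself averaged 11.53 ± 0.0425 (log2, SD, n = 3) in siSCR with DMSO and 10.41 ± 0.0365 in siPRMT1, 46.2% of the control level. With ATRA the means were 11.56 ± 0.0222 and 10.12 ± 0.0792, or 36.7%, and in each state the groups did not overlap (2-sided exact permutation p = 0.1, the smallest that 3 against 3 arrays allow). The 6 siSCR arrays differed from the siPRMT1 arrays in more than their label. Values spread over genes with an SD of 1.98 to 2.07 on each siSCR array and 2.16 to 2.27 on each siPRMT1 array. The median SD of a gene between replicates was 0.118 and 0.137 in siSCR with DMSO and ATRA, against 0.0626 and 0.0847 in siPRMT1. The 6 siSCR arrays also stood apart from the 18 others of the study, which include the undifferentiated and untreated day 4 siSCR arrays. A weight fitted to the 6 as a set was 0.465, against 1.29 for the 18. With DMSO the level of 65.9% of genes was called different between siPRMT1 and siSCR, against 18.4% in untreated day 4 embryoid bodies. The cause was not tested. The labels give no batch, so the knockdown and any other difference between these sets of arrays cannot be told apart. The pluripotency list had array means of 11.53 to 11.72 in siSCR and 11.44 to 11.63 in siPRMT1. The primed epiblast list had 8.92 to 9.18 in siSCR, but 10.31 to 10.34 in siPRMT1 with DMSO and 9.40 to 9.42 with ATRA. Fibroblast and feeder markers had array means of 8.14 to 8.37 over all 12 arrays. In the interaction 1 of 19 was called higher (Vim) and 1 lower (Thy1), against 1.92% and 1.32% of all genes. The endoderm list stood at 9.08 to 9.29 in siSCR and at 9.94 to 10.15 in siPRMT1. Array levels have no true zero, so these lists do not give cell numbers, and in bulk RNA a smaller share of a cell type and less RNA per cell cannot be told apart.

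The interaction was called for 646 of 19938 genes (3.24%) at an adjusted p under 0.05 in limma, a linear model fitted to every gene. It was higher in siPRMT1 for 382 genes (1.92%) and lower for 264 (1.32%), and 15 and 16 of these differed by at least 2-fold. ATRA changed 23.4% of genes in siSCR, where 2229 rose (11.2%) and 2434 fell (12.2%), and 12% in siPRMT1, where 1207 rose (6.05%) and 1184 fell (5.94%). This order turned in 3 alternatives. With array weights 1567 genes were called in siSCR and 7640 in siPRMT1, with the shared siSCR weight 1337 and 3504, and at 1.5-fold or more 420 and 475. Responses of at least 2-fold were fewer in siSCR, with 63 called genes against 138 in siPRMT1. Across genes the responses of siSCR and siPRMT1 had a Pearson r of 0.57 and a Spearman rho of 0.48, a description over genes that are not independent replicates. Of the genes that rose in siPRMT1, 53.1% also rose in siSCR, and 28.8% of those that rose in siSCR also rose in siPRMT1. The interaction classes held 167 genes induced more in siPRMT1, 131 repressed more, 106 induced less and 189 repressed less. A further 36 moved in opposite directions, and 17 met no class. The total was 382, 313 and 401 without siPRMT1 DMSO replicate 1, 2 or 3, and 311, 304 and 897 without siPRMT1 ATRA replicate 1, 2 or 3. In a simulation with the unequal spread of these groups, a larger share of the calls than the threshold implies fell on unchanged genes. It was 135 in a fit of the 12 arrays alone and 250 when the 6 siSCR arrays shared a lower weight.

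**Figure D1:**
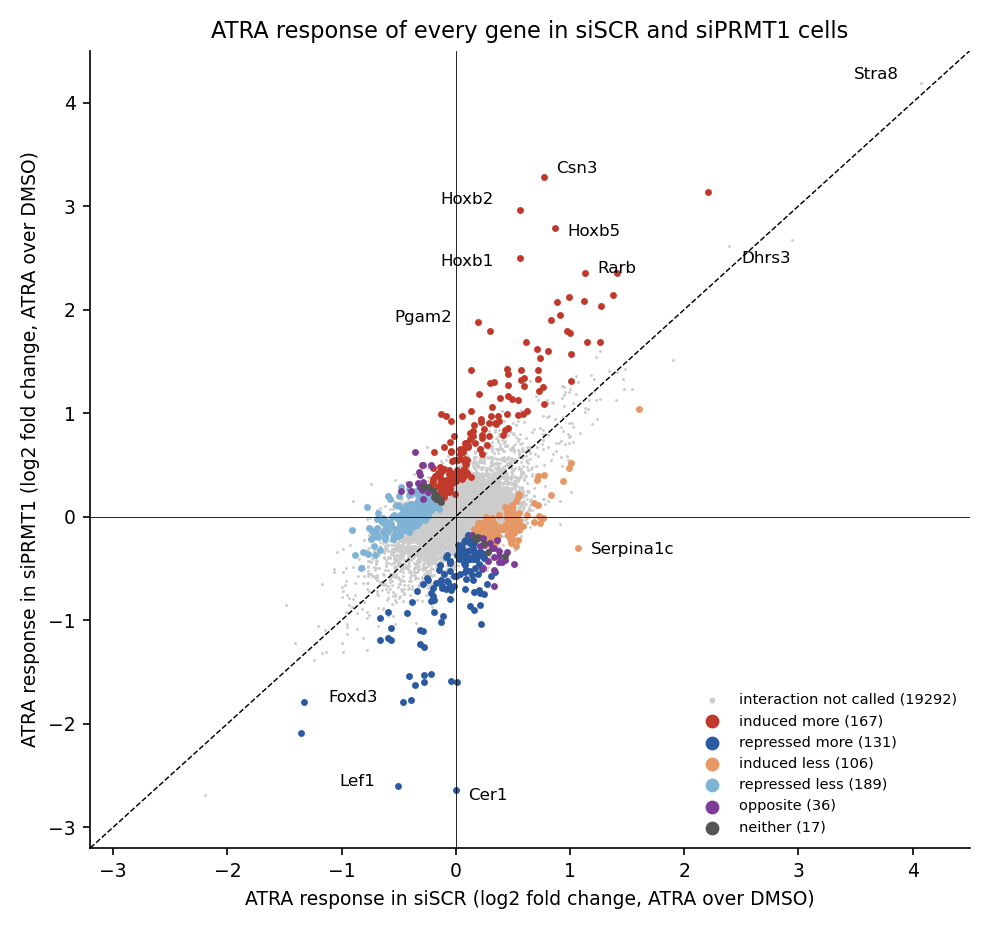
Each point is a gene, placed by its ATRA response in siSCR (horizontal axis, log2 fold change) and in siPRMT1 (vertical axis, log2 fold change), and the dashed line marks equal responses. Colours give the class of the 646 genes with a called interaction. Hoxb2, Hoxb1 and Csn3 lie far above the line, Lef1 and Cer1 far below it, and Stra8 and Dhrs3 close to it.

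Many Hox genes were induced more in siPRMT1. The HoxA and HoxB clusters encode homeodomain transcription factors that give cells their position along the body axis, and their 3′ members, numbered low, are known to answer retinoic acid earliest. Like all 23 gene lists used here, this one was chosen with earlier results of these data known. Its counts are a description beside the shares over all genes. Of 21 listed genes 19 were measured. The interaction was higher for 10 of the 19 and lower for 0, against 1.92% and 1.32% of all genes. The median was 0.48 against 0 over all genes. At an unadjusted limma p under 0.05 the higher and lower counts were 12 and 0, and 3478 of all 19938 genes passed in either direction. In siSCR 13 of the 19 rose with ATRA and 0 fell, where 11.2% and 12.2% of all genes did. In siPRMT1 15 rose and 0 fell, where 6.05% and 5.94% of all genes did.

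Hoxb2 had the largest Hox interaction. Its log2 values were 7.47, 7.35 and 7.50 in siSCR with DMSO and 7.75, 8.15 and 8.10 with ATRA. In siPRMT1 they were 7.49, 7.28 and 7.42 with DMSO and 10.41, 10.32 and 10.33 with ATRA. All DMSO arrays lay together between 7.28 and 7.50, and the siPRMT1 ATRA arrays lay above every other array. The response was 0.56 in siSCR and 2.96 in siPRMT1, an interaction of 2.40 ± 0.163 (SE, limma adjusted p = 2.45e-08), with a starting difference of -0.05.

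Hoxb1 began lower in siPRMT1 and ended higher. With DMSO its values were 8.14, 8.06 and 8.16 in siSCR and 7.66, 7.84 and 7.61 in siPRMT1. With ATRA they were 8.65, 8.56 and 8.83 in siSCR and 10.18, 10.18 and 10.27 in siPRMT1. No group overlapped another, and the starting difference was -0.41 (limma adjusted p = 0.000106). The interaction was 1.94 ± 0.11 (limma adjusted p = 1.29e-09). In untreated day 4 embryoid bodies Hoxb1 averaged 7.72 in siSCR and 7.56 in siPRMT1, a difference that was not called.

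Hoxb5 was at 6.94, 7.16 and 7.30 in siSCR with DMSO and at 8.04, 8.07 and 7.89 with ATRA. In siPRMT1 it went from 6.72, 7.06 and 6.65 to 9.62, 9.63 and 9.56. The DMSO groups overlapped each other and the ATRA groups did not, and the interaction was 1.92 ± 0.158 (limma adjusted p = 3.31e-07).

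Hoxa5 already responded strongly in siSCR, where its 3 arrays went from 7.58, 7.99 and 7.63 to 9.96, 10.16 and 9.73. In siPRMT1 they went from 7.48, 7.53 and 7.67 to 10.68, 10.79 and 10.61. Its response was thus 4.63-fold in siSCR and 8.80-fold in siPRMT1, an interaction of 0.93 ± 0.15. Hoxa3 (1.03), Hoxa4 (0.79), Hoxb4 (0.79), Hoxa2 (0.74), Hoxb3 (0.56) and Hoxa6 (0.48) were the other Hox genes called. Hoxb3 and Hoxa2 were the least secure of these, since their calls were lost in 16 and 6 of 25 alternative settings.

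The called Hox genes all belonged to the paralogous groups numbered 1 to 6, a split that was made after the values were seen. In these groups 10 of 11 genes were called, with a median interaction of 0.79 and median responses of 0.60 in siSCR and 1.60 in siPRMT1. The exception was Hoxb6, which rose by 0.48 in both and had an interaction of 0.00 ± 0.157. In groups 7 to 13 the interaction was called for 0 of 8 genes in limma (2 at an unadjusted p under 0.05, both higher), with a median of 0.06 and median responses of 0.19 and 0.30. Hoxb9 (0.43 ± 0.136, limma adjusted p = 0.0899) and Hoxa7 (0.42 ± 0.119, 0.0602) came nearest to a call. Across the 19 Hox genes the starting level with DMSO was higher in siPRMT1 for 4 and lower for 9. Over all genes 65.9% differed at this start, 31.3% higher and 34.6% lower. In untreated day 4 embryoid bodies 0 were higher and 2 lower, where 18.4% of all genes differed, 11.4% higher and 7.01% lower. The DMSO arrays of siSCR and siPRMT1 enter both the starting level and the interaction, so these counts are given side by side only.

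**Figure D2:**
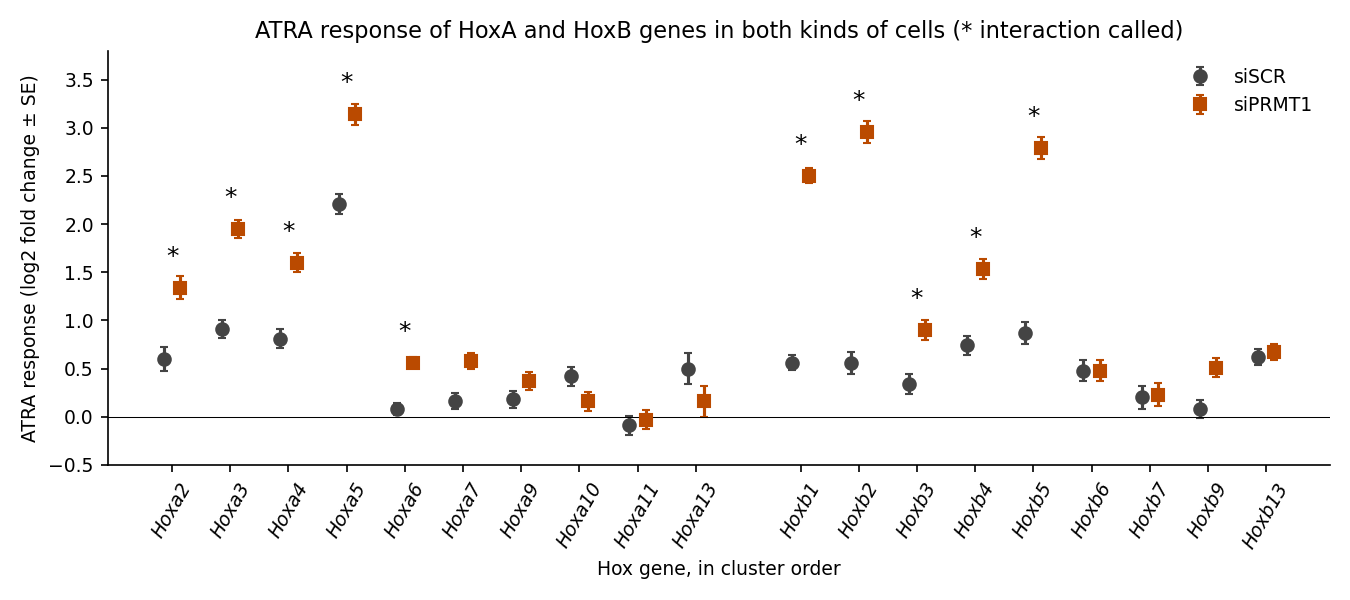
ATRA response (log2 fold change, ATRA over DMSO, vertical axis) of 10 HoxA and 9 HoxB genes in cluster order, with siSCR as dark circles and siPRMT1 as orange squares. Bars are standard errors from limma with n = 3 arrays a group, and a star marks a called interaction. The squares stand well above the circles from Hoxb1 to Hoxb5 and from Hoxa2 to Hoxa6, and both meet at Hoxb6.

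Other known targets of retinoic acid were tested as a list of 24 genes, of which 20 were measured. The interaction was higher for 7 of the 20 and lower for 0, against 1.92% and 1.32% of all genes, with a median of 0.33. At an unadjusted limma p under 0.05 it was higher for 12 and lower for 1, Cyp26a1. Of all 19938 genes 3478 passed this level in either direction. In siSCR 13 rose with ATRA and 1 fell, where 11.2% and 12.2% of all genes did. In siPRMT1 15 rose and 1 fell, where 6.05% and 5.94% of all genes did. The median responses of the list were 0.38 in siSCR and 0.98 in siPRMT1. The gene that fell in both was Gbx2, a midbrain-hindbrain factor, with responses of -0.41 and -0.45.

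Rarb, the receptor gene that is itself a classic target of retinoic acid, had the largest interaction of this list. Its log2 values were 6.88, 6.69 and 6.78 in siSCR with DMSO and 7.89, 7.86 and 7.99 with ATRA. In siPRMT1 they were 7.21, 7.38 and 7.35 with DMSO and 9.76, 9.76 and 9.47 with ATRA. No group overlapped another, and the response was 2.19-fold in siSCR and 5.11-fold in siPRMT1. The interaction was 1.22 ± 0.111 (limma adjusted p = 1.33e-06), from a start 0.53 higher in siPRMT1 with DMSO and 0.53 higher at day 4 without treatment. The RefSeq promoter of Rarb is shown because this promoter holds the textbook RAR/RXR element. It spans 250 bases before to 50 bases after the start site, on the minus strand at chr14:16575427-16575726 (GRCm38.p6), with the element in capitals.
Rarb: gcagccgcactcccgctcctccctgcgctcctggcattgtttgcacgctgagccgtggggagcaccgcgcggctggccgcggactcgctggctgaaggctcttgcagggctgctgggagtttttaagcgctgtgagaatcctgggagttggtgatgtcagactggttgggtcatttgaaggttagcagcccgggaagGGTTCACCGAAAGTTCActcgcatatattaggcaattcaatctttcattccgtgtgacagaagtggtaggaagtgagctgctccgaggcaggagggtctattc
The capitals are a direct repeat with 5 bases between its copies, called DR5, and end 36 bases before the start site. The search, on both strands, took as a copy the letters AGGTCA, also with a G as the first letter or a T as the third, and repeats with other spacers, which can overlap a DR5, were counted apart. Promoters of this length were given for 15614 tested genes, and 11 of them (0.0704%) held a DR5. Among the genes induced more 129 had a promoter entry and Rarb alone (0.775%) held a DR5, and among those repressed more it was Syndig1, a synapse gene, of 107 (0.935%). The match is a description of these letters and not of binding.

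The other called members have varied roles in the retinoid pathway. Stra6 encodes the membrane receptor that takes up vitamin A, and its values went from 8.46, 8.24 and 8.19 to 9.81, 9.56 and 9.77 in siSCR. In siPRMT1 they went from 8.65, 8.70 and 8.73 to 11.08, 11.02 and 11.01, above every siSCR array, with an interaction of 0.93 ± 0.102 (limma adjusted p = 1.88e-05). Crabp2, which carries retinoic acid to its receptors, had an interaction of 0.82 ± 0.117 (responses of 0.97 and 1.79). Cyp26b1, which degrades retinoic acid, had 0.75 ± 0.127 (0.57 and 1.32).

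Meis1 and Meis2 encode homeodomain partners of Hox proteins, and neither rose in siSCR. Meis2 was at 9.15, 9.44 and 9.12 in siSCR with DMSO and at 9.21, 9.00 and 9.09 with ATRA, which overlapped. In siPRMT1 it went from 10.38, 10.37 and 10.36 to 11.40, 11.32 and 11.34, with an interaction of 1.12 ± 0.114 (limma adjusted p = 6.63e-06). Its start was 1.13 higher in siPRMT1 with DMSO, but -0.11 at day 4 without treatment, where siSCR averaged 10.65 and siPRMT1 10.55. Meis1 had responses of 0.05 and 0.97 and an interaction of 0.92 ± 0.136. Tgm2, a transglutaminase, had responses of -0.03 and 0.54 and an interaction of 0.57 ± 0.108, from a starting difference of -1.66.

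Several strong targets showed no called interaction. Stra8 was at 6.55, 6.83 and 6.52 in siSCR with DMSO and at 10.69, 10.63 and 10.78 with ATRA. In siPRMT1 it went from 6.26, 6.11 and 6.10 to 10.37, 10.29 and 10.37. The interaction was 0.12 with a 95% interval of -0.29 to 0.52. Dhrs3, a reductase that returns retinal to retinol, had responses of 2.39 and 2.61 and an interaction of 0.22 (0.04 to 0.41, limma adjusted p = 0.182). Nrip1, a receptor corepressor, had responses of 1.18 and 1.37, and Cdx1, a caudal homeobox gene, had 0.99 and 1.20.

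Cyp26a1, the main enzyme that clears retinoic acid in the early embryo, leaned the other way. Its values went from 9.80, 9.60 and 10.01 to 11.88, 11.59 and 11.66 in siSCR and from 10.86, 10.84 and 10.93 to 12.44, 12.40 and 12.31 in siPRMT1. It started 1.07 higher and ended 0.67 higher in siPRMT1, and its interaction of -0.40 (interval -0.68 to -0.11) was not called (limma adjusted p = 0.129). Cyp26a1 was also 1.61 higher in siPRMT1 at day 4 without treatment.

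**Figure D3:**
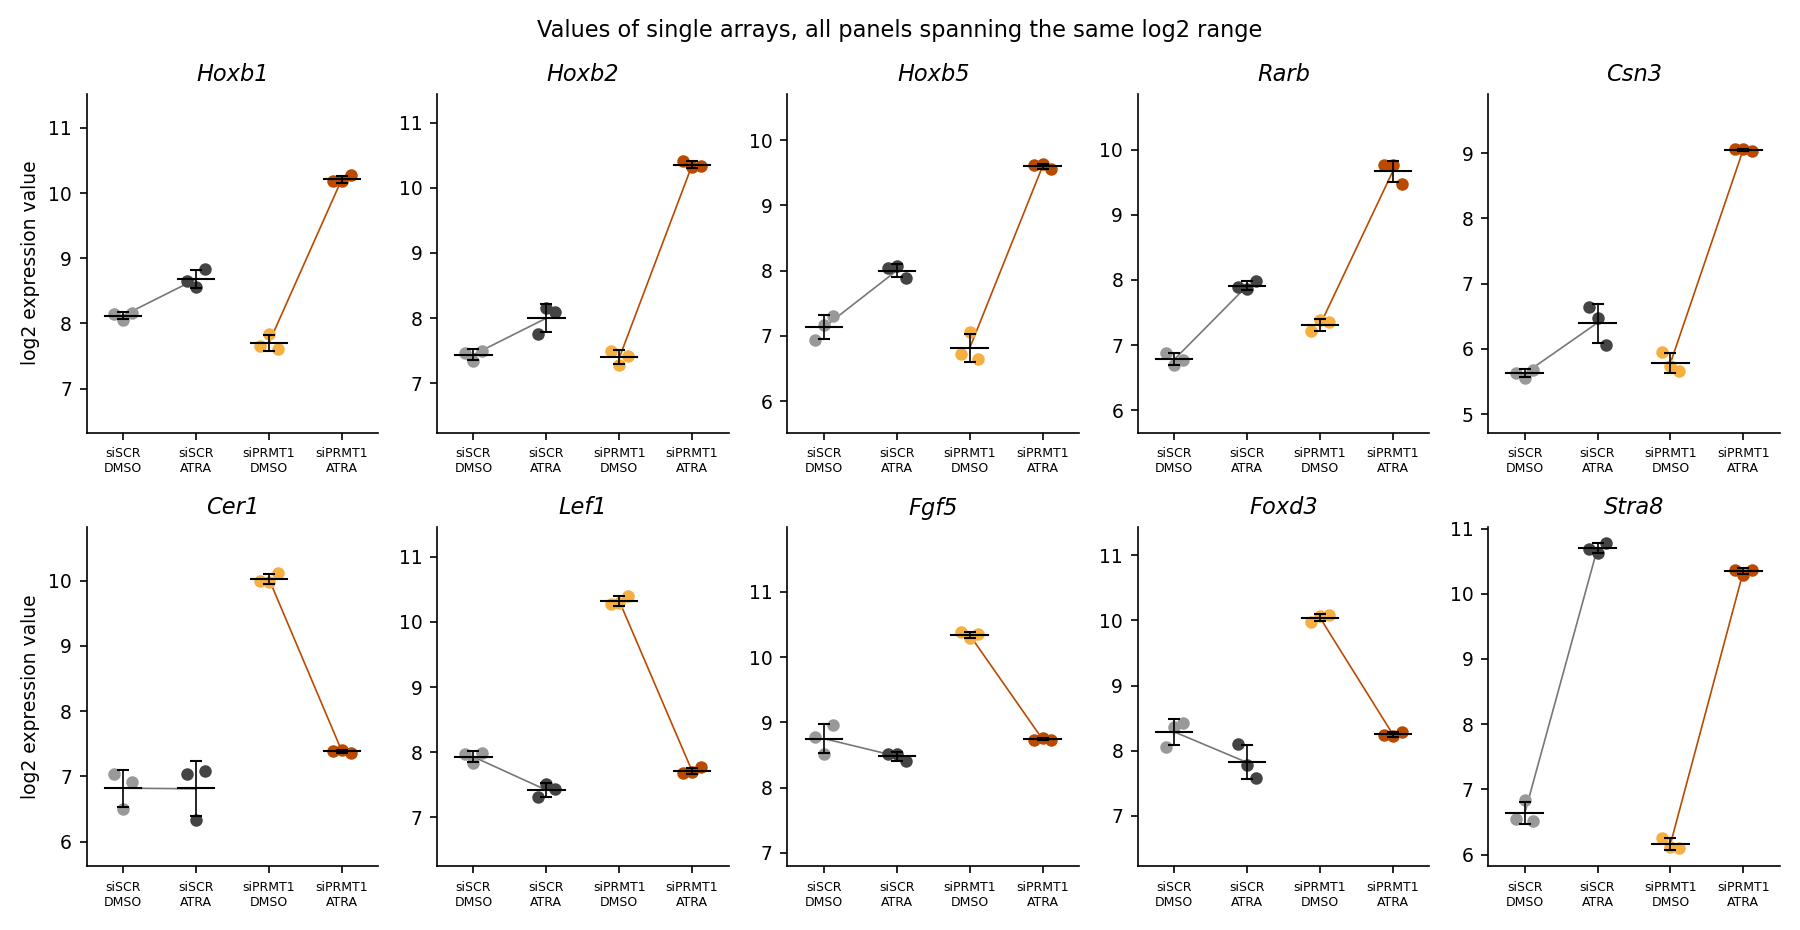
Log2 expression values of 10 genes on single arrays (points), with group means (wide bars) and SD (thin bars, n = 3), in siSCR and siPRMT1 with DMSO and ATRA. All panels span the same log2 range. The rise of Hoxb1, Hoxb2, Hoxb5, Rarb and Csn3 is steeper in siPRMT1, Cer1, Lef1, Fgf5 and Foxd3 fall from a higher start there, and Stra8 rises alike in size.

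The receptors and their cofactors were a list with 20 of 22 genes measured. It held 1 gene with a higher interaction (Rarb) and 2 with a lower one, with a median of 0.09. The shares over all genes were 1.92% higher and 1.32% lower. Rxrg, which encodes a retinoid X receptor, was at 6.10, 6.08 and 6.36 in siSCR with DMSO and at 6.34, 6.54 and 6.19 with ATRA. In siPRMT1 it went from 8.85, 8.72 and 8.76 to 8.31, 8.29 and 8.23, a fall from a start 2.59 above siSCR, and the interaction was -0.67 ± 0.117. Rarg, another RAR gene, rose by 0.55 and 0.22 from a start 0.95 higher in siPRMT1, with an interaction of -0.33 ± 0.0847, a call that was lost in 16 of 25 alternative settings. Rara rose by 0.35 in both, with an interaction of 0.00. With DMSO 17 of the 20 receptor and cofactor genes were higher in siPRMT1 and 2 lower, where 31.3% and 34.6% of all genes were. At day 4 without treatment 5 were higher and 1 lower, where 11.4% and 7.01% of all genes were.

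Genes that make, store, carry or break down retinoids had 3 higher interactions and 1 lower one among 22 of 23 measured. The shares over all genes were 1.92% higher and 1.32% lower, and the list median was 0.02. The higher ones of the list were Stra6, Crabp2 and Cyp26b1, which are also on the target list. The lower one was Bco1, which cleaves beta-carotene to retinal, with responses of 0.00 and -0.57 (lost in 6 of 25 alternative settings). The synthesis enzymes Aldh1a2 and Rdh10 had interactions of 0.06 and 0.10 and were not called.

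In the PRMT family 2 of 9 genes had a lower interaction, against 1.32% of all genes, and the family median was 0.06. Prmt8, a close relative of Prmt1, rose from 7.13, 7.03 and 7.37 to 8.17, 8.09 and 8.08 in siSCR and from 7.44, 7.31 and 7.38 to 7.80, 7.80 and 7.55 in siPRMT1. The ATRA groups did not overlap, and the interaction was -0.60 ± 0.113 (limma adjusted p = 0.00514). Prmt1 fell by 0.30 with ATRA in siPRMT1 and its response was 0.04 in siSCR. The Prmt1 interaction of -0.33 ± 0.0865 (limma adjusted p = 0.0396) was not called in a fit of the 12 arrays, after median centring or with array weights. It was also lost without siSCR DMSO replicate 1 or 3, without siSCR ATRA replicate 2 and without any single siPRMT1 array, at -0.36 to -0.29.

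Outside these lists, Csn3, which encodes the milk protein kappa-casein, had the largest higher interaction of all named genes. Its values were 5.63, 5.56 and 5.68 in siSCR with DMSO and 6.64, 6.48 and 6.06 with ATRA. In siPRMT1 they went from 5.95, 5.73 and 5.66 to 9.06, 9.07 and 9.04. The response was 1.71-fold in siSCR and 9.72-fold in siPRMT1, and the interaction was 2.51 ± 0.188 (limma adjusted p = 8.33e-08), with DMSO groups that overlapped.

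Pgam2, a muscle phosphoglycerate mutase, went from 7.49, 7.51 and 7.55 to 9.52, 9.49 and 9.18 in siPRMT1. In siSCR its ranges overlapped, 7.45 to 7.72 with DMSO and 7.58 to 7.97 with ATRA, and the interaction was 1.69 ± 0.134. Epha7, an ephrin receptor, had responses of 0.30 and 1.79 and an interaction of 1.49 ± 0.164. Gabrg1, a subunit of the GABA-A receptor, had 0.13 and 1.42 and an interaction of 1.28 ± 0.173. The 167 genes induced more had median group levels of 8.23 and 8.57 in siSCR and 8.44 and 9.57 in siPRMT1, with DMSO and ATRA in turn. Their median starting difference was 0.10, and 59 of the 167 had also been called up in siSCR.

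The genes repressed more in siPRMT1 included members of the primed epiblast list, named for the state that embryonic cells reach shortly before gastrulation. This list too was chosen with earlier results of these data known, so its counts are a description beside the shares over all genes. Of 17 listed genes 16 were measured. The interaction was lower for 9 and higher for 0, against 1.32% and 1.92% of all genes, with a median of -0.50. At an unadjusted limma p under 0.05 the lower and higher counts were 12 and 0, and 3478 of all 19938 genes passed in either direction. In siPRMT1 11 of the 16 fell with ATRA and 1 rose, where 5.94% and 6.05% of all genes did. In siSCR 5 fell and 3 rose, where 12.2% and 11.2% of all genes did. With DMSO 12 of the 16 were higher in siPRMT1 and 1 lower, with a median of 1.37, where 31.3% and 34.6% of all genes were. At day 4 without treatment 11 were higher and 1 lower, with a median of 0.70, where 11.4% and 7.01% of all genes were. The DMSO arrays enter both the starting level and the interaction, and the day 4 arrays enter only the former.

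Cer1 had the largest interaction in size of all named genes. Its values were 7.04, 6.50 and 6.91 in siSCR with DMSO and 7.03, 6.33 and 7.09 with ATRA, which overlapped. In siPRMT1 they were 9.99, 9.98 and 10.12 with DMSO and 7.39, 7.41 and 7.36 with ATRA. The interaction was -2.64 ± 0.26 (limma adjusted p = 4.64e-06), from a start 3.21 higher in siPRMT1. The day 4 means without treatment were 6.82 in siSCR and 8.70 in siPRMT1. With ATRA siPRMT1 remained 0.57 above siSCR.

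Lef1, a transcription factor of the Wnt pathway, fell in both. Its values went from 7.98, 7.83 and 7.99 to 7.31, 7.52 and 7.43 in siSCR and from 10.27, 10.29 and 10.40 to 7.68, 7.69 and 7.77 in siPRMT1. No group overlapped another, and the DMSO level in siPRMT1 stood 2.39 above siSCR while the ATRA level stood 0.29 above it. The interaction was -2.09 ± 0.0832 (limma adjusted p = 2.89e-12).

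Fgf5, the growth factor that marks the primed epiblast, was at 8.78, 8.51 and 8.96 in siSCR with DMSO and at 8.52, 8.52 and 8.40 with ATRA. In siPRMT1 it went from 10.38, 10.29 and 10.36 to 8.73, 8.76 and 8.73, levels within the range of the siSCR DMSO arrays. The interaction was -1.33 ± 0.155 (limma adjusted p = 3.70e-05), and Fgf5 was also higher in siPRMT1 at day 4 without treatment (1.37).

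Foxd3, a forkhead factor of the epiblast and neural crest, had the same interaction of -1.33 but a smaller difference at day 4 without treatment. It was at 8.06, 8.37 and 8.43 in siSCR with DMSO and at 8.10, 7.78 and 7.59 with ATRA, against 9.98, 10.07 and 10.08 and then 8.24, 8.22 and 8.29 in siPRMT1. The start was 1.75 higher in siPRMT1 with DMSO and 0.33 higher at day 4 without treatment, where siSCR averaged 9.81 and siPRMT1 10.14.

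Grhl2, an epithelial transcription factor, had responses of -0.41 and -1.54 and an interaction of -1.13 ± 0.136. The de novo DNA methyltransferase genes Dnmt3b and Dnmt3a had interactions of -0.52 ± 0.0833 and -0.45 ± 0.0851. Dnmt3b fell in both (-0.57 and -1.08), whereas Dnmt3a rose in siSCR (0.24) and fell in siPRMT1 (-0.21). Pou3f1, an early neural factor, had responses of 0.12 and -0.53 and an interaction of -0.64 ± 0.12. Zic5 had -0.52 ± 0.122, but another of its probe sets gave 0.27, and with the mean of the sets the call was lost.

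Not all epiblast genes followed. Otx2, a head and epiblast homeobox gene, fell steeply in both, with responses of -2.20 in siSCR and -2.69 in siPRMT1, and its interaction of -0.49 (interval -0.83 to -0.15) was not called (limma adjusted p = 0.11). Lefty1, an inhibitor of Nodal, rose by 1.26 and 1.14, with an interaction of -0.12 (interval -0.34 to 0.09). Nodal itself and Lefty2 had interactions of -0.05 and 0.02.

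**Figure D4:**
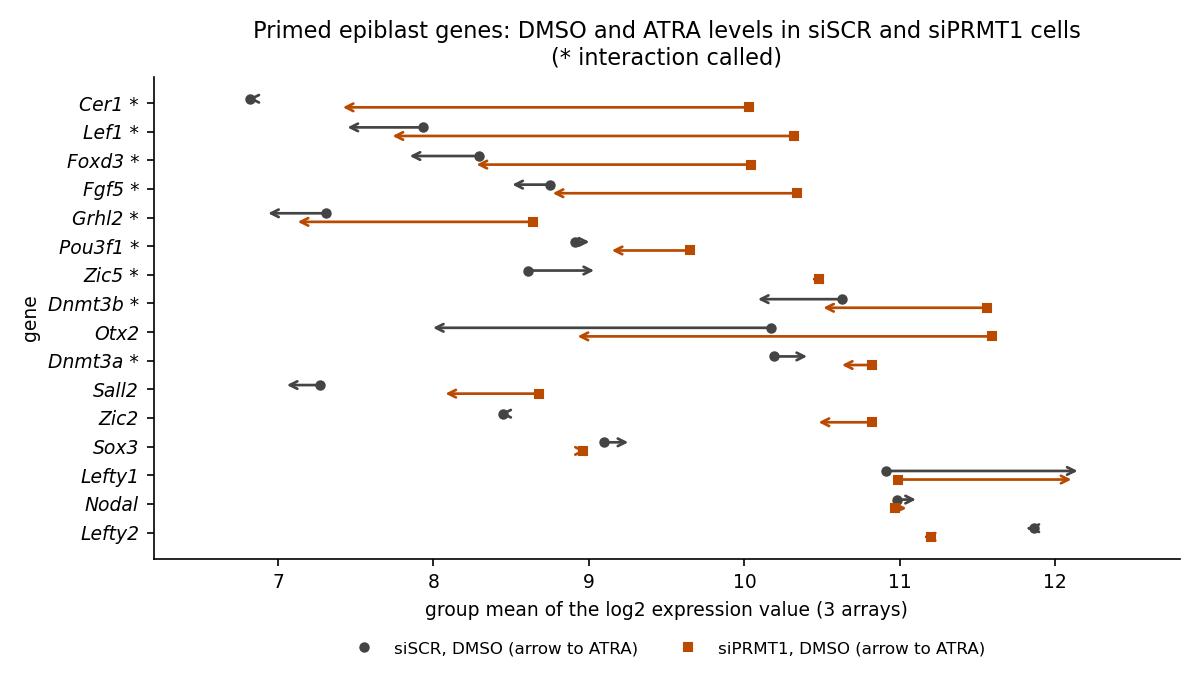
Group means of the log2 expression value (horizontal axis) of 16 primed epiblast genes. Each arrow runs from the mean with DMSO to the mean with ATRA (n = 3 arrays each), in dark grey for siSCR and orange for siPRMT1, and a star marks a called interaction. The orange arrows of Cer1, Lef1, Foxd3, Fgf5 and Grhl2 begin at a higher level and run further down than the grey ones.

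Among the genes of the Nodal, FGF, Wnt and BMP pathways 7 of 34 had a lower interaction and 1 a higher one. The shares over all genes were 1.32% lower and 1.92% higher, and the list median was -0.04. Cer1, Lef1 and Fgf5 were among the 7. Fgf15, a secreted FGF, went from 8.76, 8.56 and 8.76 to 8.56, 8.57 and 8.30 in siSCR, which overlapped. In siPRMT1 it went from 9.74, 9.76 and 9.71 to 8.15, 8.27 and 8.25, and the interaction was -1.30 ± 0.116 (limma adjusted p = 1.17e-06). Fgf4 (-0.48), Fgf8 (-0.57) and Etv4 (-0.39), a transcription factor induced by FGF signals, were the rest, and their calls were lost in 6, 16 and 8 of 25 alternative settings. Bmp4, a ligand of the BMP pathway, fell by 0.55 in siSCR and by 0.22 in siPRMT1 and had the higher interaction (0.33, lost in 7 of 25).

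In the primitive streak and mesoderm list 2 of 21 were lower and 1 higher, against 1.32% and 1.92% of all genes. The list median was -0.09. Lhx1, a homeobox gene of the head organizer and streak, went from 7.84, 7.71 and 7.88 to 7.50, 7.53 and 7.31 in siSCR and from 9.18, 9.14 and 9.28 to 7.58, 7.59 and 7.54 in siPRMT1. It started 1.39 higher in siPRMT1 and ended 0.12 above siSCR, with an interaction of -1.27 ± 0.141 (limma adjusted p = 2.31e-05). The other members called were Fgf8 and Bmp4.

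Further genes repressed more were named by the size of their interaction. Pilra, a receptor of the immunoglobulin-like family, had responses of 0.01 and -1.60 and an interaction of -1.61 ± 0.22, and its near copies Pilrb1 (-1.26) and Pilrb2 (-1.05) may share probes with it. Pim2, a serine/threonine kinase, was within 8.79 to 9.12 on all siSCR arrays and went from 10.76, 10.79 and 10.83 to 9.18, 9.17 and 9.25 in siPRMT1, with an interaction of -1.55 ± 0.107. Cdh9, a type II cadherin, had responses of -0.39 and -1.77 and an interaction of -1.38 ± 0.206. The 131 genes repressed more had median levels of 8.07 and 8.06 in siSCR and 8.97 and 8.28 in siPRMT1, with DMSO and ATRA in turn. Their median starting difference was 0.74, and 23 of the 131 had also been called down in siSCR.

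The genes induced less or repressed less rested on smaller differences and on the siSCR arrays, which scattered more. Their class is defined by a response in siSCR. Zfp114, a zinc finger gene, went from 6.06, 6.06 and 6.57 to 7.15, 6.91 and 6.86 in siSCR, while in siPRMT1 its arrays overlapped between 6.11 and 6.36, and the interaction was -0.81 ± 0.153. Vsir, which encodes the immune checkpoint protein VISTA, rose by 0.49 in siSCR and had a response of -0.22 in siPRMT1, from a start 0.82 higher (interaction -0.71). Ndnf, a secreted neurotrophic factor, had 0.47 and -0.22 from a start 1.27 higher (-0.69), and the sulfotransferase gene Chst1 had 0.48 and -0.26 (-0.74). The calls of Serpina1c (-1.37), Gzmc (-0.72) and Baiap2l2 (-0.77) were lost in 13 of 24, 9 of 24 and 6 of 25 alternative settings.

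Gprc5a, an orphan receptor known as a retinoic acid induced gene, fell from 9.86, 9.53 and 9.42 to 9.15, 8.96 and 8.93 in siSCR. In siPRMT1 it was at 9.58, 9.60 and 9.58 with DMSO and 9.88, 9.84 and 9.65 with ATRA, a response of 0.20 that was not called, and the interaction was 0.79 ± 0.128. Hsd3b2, a steroid-synthesis enzyme, had responses of -0.78 and 0.09 (interaction 0.87), and Slc31a2, a copper transporter, had -0.50 and 0.20 (0.70). Prxl2a, a peroxiredoxin-like gene, had -0.48 and 0.29 (0.76). Pcgf1, a Polycomb subunit, had -0.91 and -0.13 (0.78), from a start -2.42 relative to siSCR with DMSO and 0.02 at day 4 without treatment. The calls of Brs3 (0.75), a bombesin-type receptor, and of Defb4 (0.71), a defensin, were lost in 11 and 15 of 24 settings.

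Most genes repressed less were highly expressed. Of its 189 genes 138 (73%) lay among the 4985 genes with the highest mean over the 24 arrays, against 37 of the 167 genes induced more. The median interaction over all genes of that brightest set was 0.0541, with a median siSCR response of -0.0751, and over the 4985 dimmest genes it was -0.0595, with a median siSCR response of 0.111. Of the 106 genes induced less, 11 were olfactory or vomeronasal receptors. Their share over all genes was not counted, so no trait of the class can be read from this number. The part of level in these classes was not tested. With a shared lower weight for the 6 siSCR arrays, 82 of the 167 genes induced more and 64 of the 131 repressed more kept their class. Of the 106 induced less 18 did, and of the 189 repressed less 45 did. Both latter classes require a called siSCR response, and this weight cut such calls from 4663 to 1337. The siPRMT1 calls went from 2391 to 3504. This setting therefore cannot compare how secure the classes are.

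**Figure D5:**
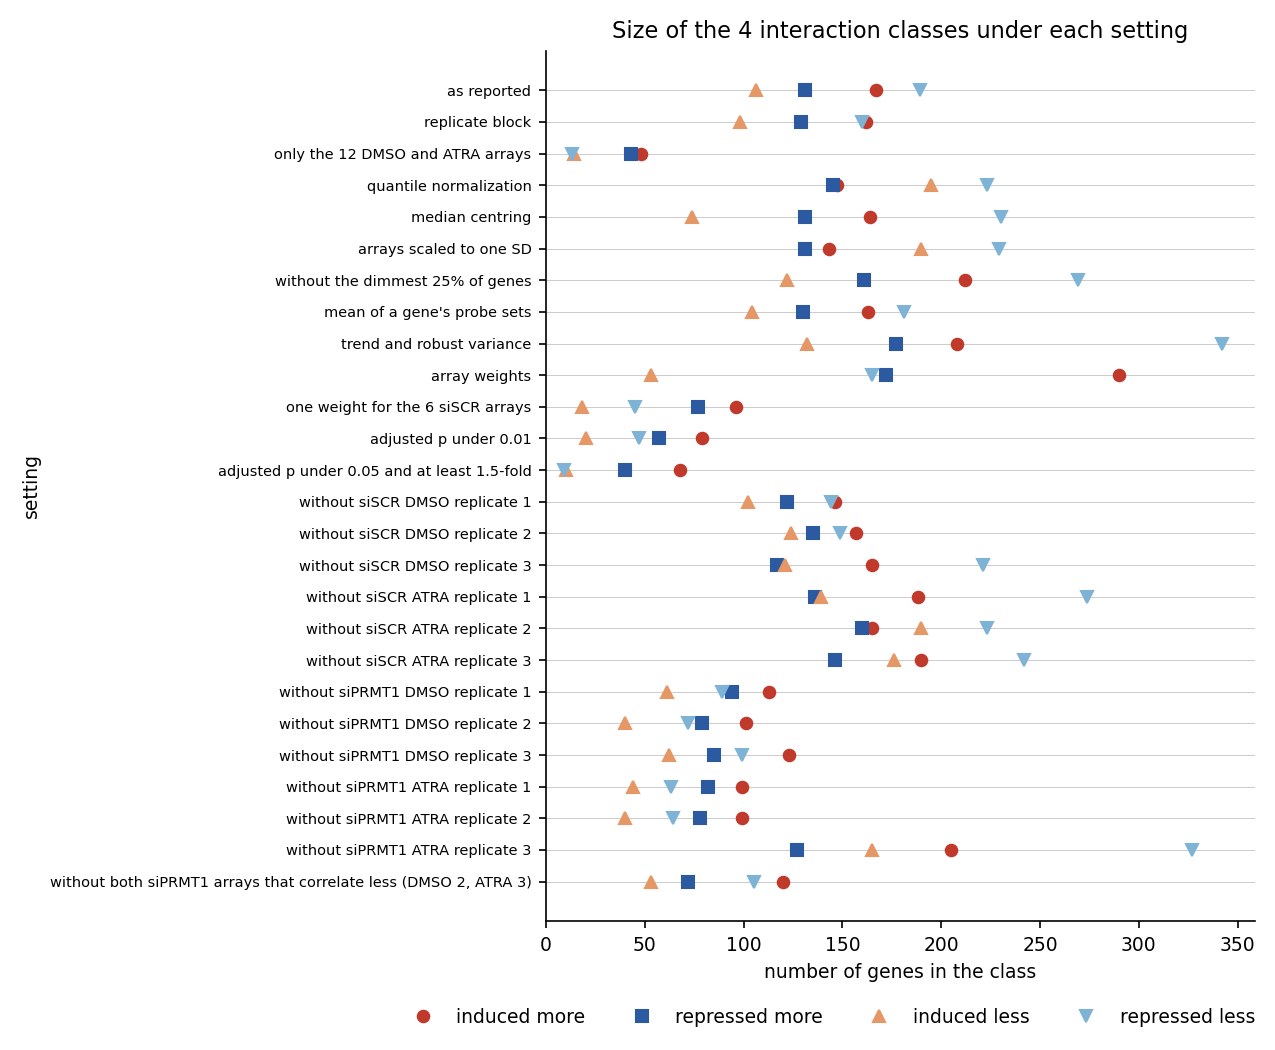
Number of genes (horizontal axis) in the 4 interaction classes as reported and under each alternative setting (vertical axis). Induced more (circles) and repressed more (squares) ran from 48 to 290 and from 40 to 177 genes, induced less (upward triangles) from 10 to 195, and repressed less (downward triangles) from 9 to 342.

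Opposite responses were called for 36 genes, 15 up and 21 down in siPRMT1. Bin2, a membrane-bending protein gene, went from 9.04, 8.95 and 9.07 to 8.67, 8.68 and 8.64 in siSCR and from 9.38, 9.24 and 9.44 to 10.05, 10.14 and 9.73 in siPRMT1, with an interaction of 0.98 ± 0.141. Ptp4a2, a phosphatase, had responses of -0.48 and 0.25 (interaction 0.73), Sike1, a suppressor of an innate immune kinase, -0.29 and 0.50 (0.79), and Nab1, a corepressor of EGR factors, -0.32 and 0.43 (0.76). Zfp39 had -0.22 and 0.50 (0.72). Efna5, an ephrin ligand, went from 6.73, 7.12 and 6.86 to 7.22, 7.16 and 7.31 in siSCR and from 8.06, 8.08 and 8.34 to 7.43, 7.58 and 7.47 in siPRMT1, an interaction of -0.99 ± 0.129. Hsd11b2, which inactivates glucocorticoids, had 0.51 and -0.46 (-0.97). The potassium channel genes Kcnj5 and Kcnc2 had -0.85 and -0.84, with calls lost in 3 of 25 and 6 of 24 settings.

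Over all genes 1.92% had a higher interaction and 1.32% a lower one, against which the remaining lists are given. Pluripotency genes had 1 of 23 higher (4.35%, Klf5, 0.32) and 2 lower (8.70%, Fgf4 and Prdm14, -0.37), with Klf5 lost in 4 and Prdm14 in 17 of 25 settings. Pou5f1 and Nanog had -0.04 and 0.05. Neural genes had 1 of 21 (4.76%) higher (Pax6, a neural and eye factor, 0.54) and 1 lower (Pou3f1), with Pax6 lost in 14 of 25 settings. Endoderm genes had 1 of 23 (4.35%) higher, Dab2 (0.42), an endocytic adaptor, and 2 (8.70%) lower, Amn (-0.73), which serves vitamin B uptake, and Apoa4 (-0.59), an apolipoprotein. Another probe set of Dab2 gave -0.11, and the calls of Dab2 and Apoa4 were lost in 9 and 10 of 25 settings. The interaction was called in limma for 0 members of the lists for cell cycle (23 measured), hypoxia and glycolysis (23), ATF4 stress (20), immediate early genes (19), trophectoderm (14) and the 2-cell-like state (8). At an unadjusted p under 0.05 these lists held 4, 4, 2, 6, 4 and 2 genes in either direction. Of all 19938 genes 3478 passed this level.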

How the data were processed

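RNA was hybridised to Affymetrix whole-transcript arrays after biotin labelling of cDNA made from 300 ng of total RNA, per the labels. The table deposited by the authors holds log2 values for 35556 probe sets, a scale inferred from their range. The sources used here do not give the summarization and normalization steps. The number of arrays limits the precision, and the median standard error of the interaction was 0.132.

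Of the sets, 21789 had 1 gene symbol, 1621 several and 12146 none. Only the first were used, with the brightest set of each of 999 genes that had several, which left 19938 genes. In R 4.3.3, limma 3.58.1 (lmFit and eBayes with contrasts) fitted 8 group means to all 24 arrays (16 residual degrees of freedom), with Benjamini-Hochberg adjustment over all genes. The fit was tested on simulated data that gave each group its own spread. There a larger share of the called interactions than the threshold implies fell on unchanged genes, and part of the smaller seeded changes was missed.

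The comparison, the named genes and 23 gene lists were chosen with earlier results of these data known. Named were Prmt1, then the 7 largest interactions per class among genes whose 3 ATRA arrays lay apart from the 3 DMSO arrays in the cells whose response defines the class, and the 5 largest opposite genes each way without this condition. Symbols of predicted genes, microRNAs, Snora and Snord RNAs, receptor families of smell and taste, and the like were passed over (Rnu3a, also a small nucleolar RNA, has another symbol and was named), and list members were named as members. Genes called induced more rose in siPRMT1 without falling in siSCR, and the other classes were built in the same way. Alternatives changed the replicate block, arrays, scaling, filter, probe sets, variance model, weights or threshold, or left out an array. Equal replicate numbers did not pair arrays. Sequences came from RefSeq.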

Additional observations from a re-analysis of the deposited data

Results flagged for a closer look

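The ATRA response differed between siSCR and siPRMT1 by the interaction test itself for 646 genes, among them 10 of the Hox list, 7 of the other retinoic acid targets and 9 of the primed epiblast list. The interactions of the genes named by size were as follows on the log2 scale. Among the genes induced more they were 2.51 for Csn3, 2.40 for Hoxb2, 1.94 for Hoxb1, 1.92 for Hoxb5, 1.69 for Pgam2, 1.49 for Epha7 and 1.28 for Gabrg1. Among the genes repressed more they were -2.64 for Cer1, -2.09 for Lef1, -1.61 for Pilra, -1.55 for Pim2, -1.38 for Cdh9 and -1.33 for both Fgf5 and Foxd3. These 14 genes were called under every alternative that could be computed for them, with the same sign.

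Among the genes induced less the values were -1.37 for Serpina1c, -0.81 for Zfp114, -0.77 for Baiap2l2, -0.74 for Chst1, -0.72 for Gzmc, -0.71 for Vsir and -0.69 for Ndnf. Among those repressed less they were 0.87 for Hsd3b2, 0.79 for Gprc5a, 0.78 for Pcgf1, 0.76 for Prxl2a, 0.75 for Brs3, 0.71 for Defb4 and 0.70 for Slc31a2. Opposite responses gave 0.98 for Bin2, 0.79 for Sike1, 0.76 for Nab1, 0.73 for Ptp4a2 and 0.72 for Zfp39, and -0.99 for Efna5, -0.97 for Hsd11b2, -0.85 for Kcnj5, -0.85 for the small RNA Rnu3a and -0.84 for Kcnc2. Prmt1 itself gave -0.33.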

How the results depend on the processing

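Counts are called genes, with the classes in the order induced more, repressed more, induced less, repressed less and opposite. With only the 12 arrays the interaction had 135 calls (67 higher, 68 lower), the siSCR response 2855, the siPRMT1 response 1566, and the classes 48, 43, 14, 13 and 17. With a shared weight for the 6 siSCR arrays (0.465 against 1.29 for the 18 others) there were 250 (146 higher, 104 lower), 1337 in the siSCR response, and classes of 96, 77, 18, 45 and 12. With free array weights the siSCR response had 1567 calls, the siPRMT1 response 7640, and induced more, induced less and opposite 290, 53 and 56. At an adjusted p under 0.01 there were 220 (132 higher, 88 lower), responses of 2357 and 1537, and classes of 79, 57, 20, 47 and 13. At 1.5-fold or more there were 203 (100 higher, 103 lower), responses of 420 and 475, a DMSO starting difference for 4821, and classes of 68, 40, 10, 9 and 0. Induced less held 195 after quantile normalization and 190 with arrays scaled to one SD. A trend and robust variance gave 583 higher interactions and 342 repressed less. The cause of these shifts was not tested.

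Leaving out each array in turn gave 304 to 897 interactions (171 to 572 higher, 131 to 386 lower). The classes ran from 99 to 205, 78 to 160, 40 to 190, 63 to 327 and 20 to 51. The responses ran from 3816 to 4870 in siSCR and 1737 to 2676 in siPRMT1, the starting difference from 11605 to 13492, and the Prmt1 interaction from -0.36 to -0.29. Prmt1 was also lost with the 12 arrays (-0.33), median centring (-0.31), array weights (-0.27), the shared weight (-0.33) and both stricter thresholds (-0.33). Over all alternatives 7 to 11 Hox genes, 6 to 8 other targets and 6 to 11 epiblast genes were called.

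Equal replicate numbers did not pair the arrays (r -0.50 to 0.11), and with the replicate block the interaction had 588 calls, with 5 of 83 named genes lost. Chosen after the data were seen was a fit without siPRMT1 DMSO replicate 2 and ATRA replicate 3, which deviated together (r 0.57). It had 370 calls (233 higher, 137 lower), 1465 in the siPRMT1 response, 72 repressed more, 53 induced less, 105 repressed less, 17 opposite and a Prmt1 interaction of -0.27. Also added was the start at day 4 without treatment, with 3669 calls. No named gene changed sign in any alternative, and 1766 of the gene by setting values kept their call while 300 lost it. The 9 named genes of the dimmest 25%, Csn3, Gabrg1, Serpina1c, Zfp114, Gzmc, Hsd3b2, Brs3, Defb4 and Kcnc2, had no value without that set. No detection calls were used, so low signals may be near background.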

Other observations

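Some other groups held genes with called interactions, where 1.92% of all genes were higher and 1.32% lower. Pmaip1, a pro-apoptotic gene that p53 induces, rose in siSCR from 10.35, 10.29 and 10.33 to 10.74, 10.62 and 10.68 and fell in siPRMT1 from 9.11, 9.17 and 9.11 to 8.97, 8.84 and 8.89, with an interaction of -0.59 ± 0.0805 (limma adjusted p = 0.000263). Mdm2, which restrains p53, had 0.38 (lost in 8 of 25 alternative settings), and the other 11 of 13 measured p53 targets were not called. In the germ cell and meiosis list 1 of 16 was called, Rec8, a meiotic cohesin (0.42, lost in 7 of 25). In siSCR 7 of the 16 rose with ATRA and 2 fell, where 11.2% and 12.2% of all genes did. In siPRMT1 7 rose and 0 fell, where 6.05% and 5.94% of all genes did. Among interferon genes 2 of 23 were lower, Ifitm1 (-0.39) and Ifitm3 (-0.30), with calls lost in 16 and 13 of 25 settings, and among blood and endothelial genes 1 of 15, Gata1 (-0.70), an erythroid factor. In a list of small noncoding RNAs and host genes of small nucleolar RNAs, such as Gas5, 3 of 12 measured genes were lower. These were Rmrp (-0.33), Rpph1 (-0.29) and Rnu3a (-0.85), and the list median was -0.25. The calls of Rmrp and Rpph1 were lost in 13 and 12 of 25 settings.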
